A study of Mus musculus with 4 samples.

Results

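The respiratory chain and ATP synthase genes of mouse periosteal macrophages are described here across 4 RNA-seq libraries. Members were chosen by gene symbol alone, as the nuclear genes named Nduf with a letter a, b, c, s or v and a number, Sdha to Sdhd, Uqcr, Cox4 to Cox8 and Atp5, and the protein-coding genes of mitochondrial DNA. The rule took 94 of the 17532 genes that either deposited table lists, 81 from nuclear DNA and 13 from mitochondrial DNA. Complex I had 44 members, complex II 4, complex III 9, complex IV 17 and complex V, the ATP synthase, 20. Of the 94, 92 were protein coding in the GENCODE M21 annotation and 2, Atp5k-ps2 and Atp5l2-ps, were processed pseudogenes. Atp5s and Cox7a2l match by name but encode no core subunit, and Ndufa4, kept with complex I by its name, is now counted with complex IV in the field.

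The study sorted CD45+ CX3CR1+ cells that also carried ACE or CD74 from the periosteum, the membrane on the outer face of bone, of 4-week-old (postnatal day 28) male wild-type C57BL/6 mice. The sorted cells of both subsets were cultured with 10 ng/ml M-CSF, the macrophage growth factor, in DMEM with 10% FBS, and received either recombinant mouse periostin (500 ng/ml), a matrix protein of the periosteum, or PBS as vehicle. RNA was taken after 24 h. Each of the 4 groups was 1 library (ACE+ vehicle, ACE+ periostin, CD74+ vehicle, CD74+ periostin), and values for 4 libraries are given in that order. Nothing in the sources used here says how many animals each library pools, and with 1 library per group no difference between 2 libraries has a replicate check.

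The respiratory chain sits in the inner mitochondrial membrane. Complexes I and II take electrons from NADH and succinate, complex III passes them to cytochrome c, and complex IV hands them to oxygen. Complexes I, III and IV pump protons, and complex V uses the gradient to make ATP. Complexes I, III, IV and V join subunits of both genomes, whereas all subunits of complex II are nuclear. In macrophages the chain is known both for ATP supply and for reactive oxygen made at complex I when succinate is oxidised quickly.

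The libraries held 15471245, 19798150, 16650349 and 11846312 reads on genes, and 1 read was worth 0.0627, 0.0491, 0.0598 and 0.0897 CPM. CPM here means the authors' scaled count per 1000000 of the mean library total. The 12 macrophage markers and the 4 sort markers had reads in all 4 libraries. The macrophage markers summed to 7611, 8112, 7050 and 6887 CPM. With periostin 9 of them were higher and 3 lower in ACE+ cells, and 5 higher and 7 lower in CD74+ cells. Cx3cr1 stood at 16.9, 21.7, 18.2 and 14.5 CPM, and Ace at 2.76, 2.80, 0.897 and 9.51 CPM, so Ace was highest in a CD74+ library. Cd74 stood at 531, 552, 850 and 1222 CPM, higher in both CD74+ libraries than in both ACE+ libraries. Ptprc, the gene of CD45, stood at 618, 560, 458 and 363 CPM. The 8 neutrophil markers summed to 22114, 26829, 12359 and 19869 CPM and the 9 erythroid markers to 1535, 1813, 270 and 493 CPM. Both sums were higher with periostin in each subset, but not every marker was. In CD74+ cells 6 of 8 neutrophil markers were higher, while Cxcr2 and Elane were lower. Of the 7 erythroid markers that reached 1 CPM there, 6 were higher and Alas2 was lower. In ACE+ cells 8 of 8 neutrophil and 6 of 9 erythroid markers were higher. The part of both sums in the results below was not tested.

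The 13 mitochondrial members stood at 2 levels per kb of gene length. mt-Co1, mt-Cytb and mt-Nd1, mt-Nd2, mt-Nd4 and mt-Nd5 lay between 704 and 4250 CPM per kb, and the other 7 between 3.38 and 193 CPM per kb. mt-Co1, the catalytic subunit of complex IV, stood at 6373, 5815, 6292 and 5685 CPM. mt-Cytb, the electron-carrying core of complex III, stood at 2864, 3084, 3167 and 4504 CPM. mt-Nd1, which helps form the ubiquinone site of complex I, stood at 2126, 2236, 2775 and 4067 CPM. The proton-pumping subunits mt-Nd2, mt-Nd4 and mt-Nd5 lay between 1284 and 2473 CPM in all 4 libraries. In contrast, mt-Co2, the subunit of complex IV that receives electrons from cytochrome c, stood at 29.0, 27.7, 28.5 and 38.9 CPM. mt-Co3 stood at 15.9, 15.6, 17.3 and 24.9 CPM, and mt-Atp6, the proton-channel subunit of ATP synthase, at 11.7, 13.5, 15.5 and 20.2 CPM. mt-Nd3 stood at 12.1, 15.4, 12.4 and 32.9 CPM and mt-Nd4l at 1.00, 1.86, 2.03 and 3.41 CPM. These 5 genes are read from the same strand as the higher ones, in shared precursors. mt-Nd4l (chrM:9877-10173) overlaps the start of the higher mt-Nd4 (chrM:10167-11544).

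The same 5 were also those whose sequence recurs almost whole in another annotated gene. In mt-Co2, mt-Co3, mt-Atp6, mt-Nd3 and mt-Nd4l, between 98.0% and 100% of all 50-base words of the transcript were found in a transcript of another gene. In mt-Nd1, mt-Nd2, mt-Nd5, mt-Nd6 and mt-Cytb the share was between 0% and 8.19%. The recurring words lay in a run of pseudogenes on chromosome 1, a nuclear copy of mitochondrial DNA. mt-Co2 (chrM:7013-7696, plus strand) and Gm28661 (chr1:24614885-24615565, minus strand) had 0 differences over 681 aligned bases, mt-Co3 and Gm28437 0 over 783, mt-Atp6 and Gm10925 0 over 678, mt-Nd4l and Gm10222 0 over 294, and mt-Nd3 and Gm28438 1 over 345. A 90-base stretch of mt-Co2, from base 296 to base 385 of the transcript, is shown beside the same stretch of its copy because a read from either cannot be assigned by sequence; it has 0 differences and so no capitals.
mt-Co2: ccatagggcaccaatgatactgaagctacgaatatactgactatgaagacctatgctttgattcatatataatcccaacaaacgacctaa
Gm28661: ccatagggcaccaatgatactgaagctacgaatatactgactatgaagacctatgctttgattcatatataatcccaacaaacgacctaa
The last part of mt-Co1 (chrM:5328-6872, plus strand), from base 1054 to base 1545, matched Gm29216 (chr1:24615706-24616197, minus strand) with 6 differences over 492 bases. All 6 lie in its first 90 bases, which are shown with the differing bases in capitals.
mt-Co1: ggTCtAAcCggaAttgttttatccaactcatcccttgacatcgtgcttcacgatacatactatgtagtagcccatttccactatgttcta
Gm29216: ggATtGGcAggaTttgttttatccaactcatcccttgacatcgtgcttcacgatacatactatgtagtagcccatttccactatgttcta
These sequences are from GENCODE M21 transcripts on GRCm38.

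The copies of mt-Co2, mt-Co3 and mt-Atp6 were listed near the level of their mitochondrial partners. Gm28661 stood at 26.0, 29.4, 26.4 and 46.7 CPM beside mt-Co2, and Gm28437 at 14.99, 15.7, 17.0 and 19.5 CPM beside mt-Co3. Gm10925 stood at 13.6, 14.2, 16.6 and 19.2 CPM beside mt-Atp6. Gm10222 stood at 2.07, 3.09, 3.11 and 1.08 CPM, above mt-Nd4l in 3 libraries and below it in the CD74+ periostin library. Gm28438, the copy of mt-Nd3, was lower than its partner in every library, at 1.63, 1.23, 2.03 and 3.05 CPM. mt-Nd4 shared 62.2% and mt-Co1 51.1% of their words, and per 1000 words that recur in no other gene mt-Nd4 stood at 2847, 3289, 3172 and 4925 CPM. The sources used here do not give how the authors' counting treated reads that match both places. The levels and changes of mt-Co2, mt-Co3, mt-Atp6, mt-Nd3 and mt-Nd4l, and their place below the others, are therefore uncertain.

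The remaining low pair shared no word with an annotated transcript. mt-Atp8, a small ATP synthase subunit, stood at 3.95, 4.12, 5.62 and 4.66 CPM. Its last 43 bases overlap mt-Atp6, and the matching part of the chromosome 1 copy falls in the unannotated gap between Gm10925 and Gm28661. mt-Nd6, the complex I subunit read from the opposite strand, stood at 18.9, 21.9, 46.2 and 100.3 CPM (301, 447, 772 and 1118 reads). Its end overlaps mt-Nd5 by 14 bases, and since the strand setting of the counting is not given, RNA of its antisense strand cannot be told apart from it.

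**Figure D1:**
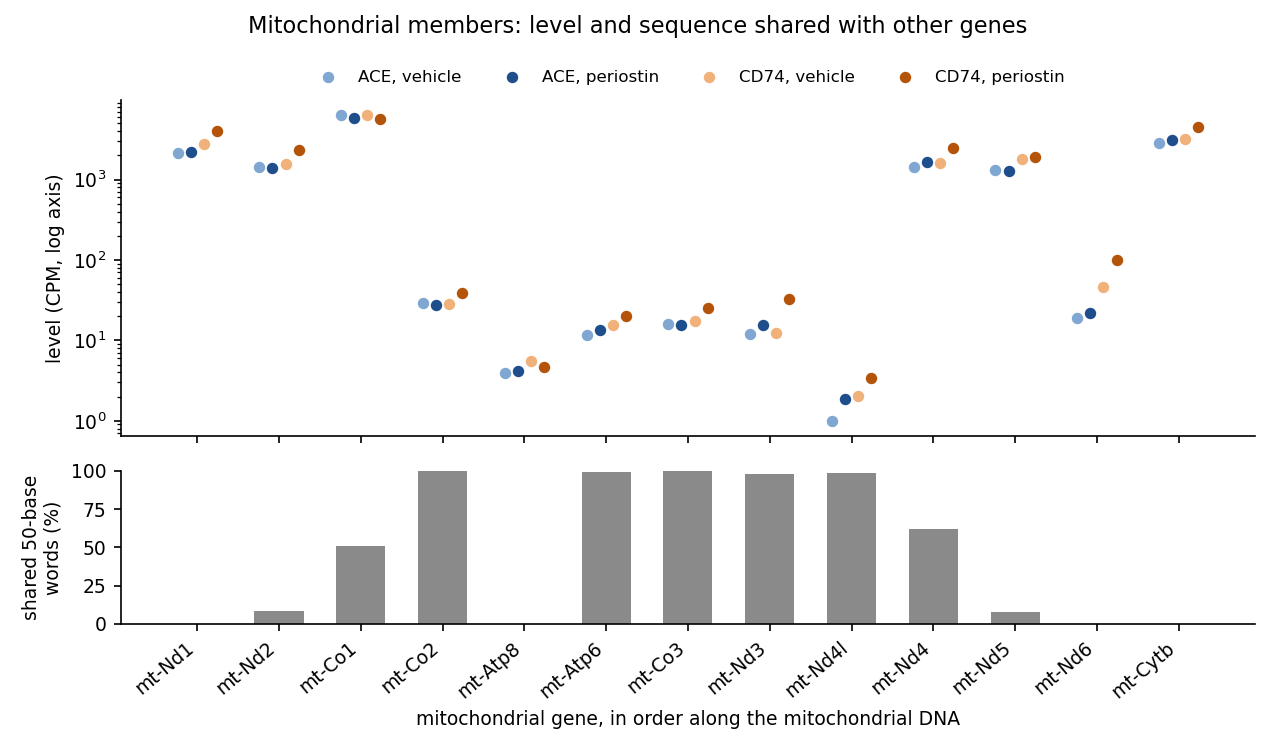
Level of each mitochondrial member in the 4 libraries (upper panel, CPM on a log axis, 1 point per library) and the percent of its 50-base words found in transcripts of other genes (lower panel), in order along the mitochondrial DNA. The 5 genes with shares between 98.0% and 100% lie between 1.00 and 38.9 CPM, whereas mt-Nd1, mt-Nd2, mt-Nd5 and mt-Cytb lie above 1000 CPM.

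Per kb of gene length, the nuclear members had a median of 51.3, 52.0, 55.3 and 69.4 CPM per kb in the 4 libraries. Cox6b1, the subunit that helps join complex IV into a dimer, was the highest nuclear member, at 353, 400, 417 and 708 CPM per kb. The highest nuclear members of the other complexes per kb were Ndufa4 (202, 230.4, 264 and 313), Sdhd, a membrane anchor of complex II (79.6, 83.8, 90.9 and 86.2), Uqcr10, a small subunit of complex III (128, 137, 150.3 and 197), and Atp5l, subunit g of ATP synthase (257, 214, 284 and 412 CPM per kb). Atp5l shared 84.8% of its 50-base words with transcripts of other genes, so its level is uncertain. The CD74+ periostin library was the highest for Cox6b1, Ndufa4, Uqcr10 and Atp5l, while Sdhd was highest in the CD74+ vehicle library.

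**Figure D2:**
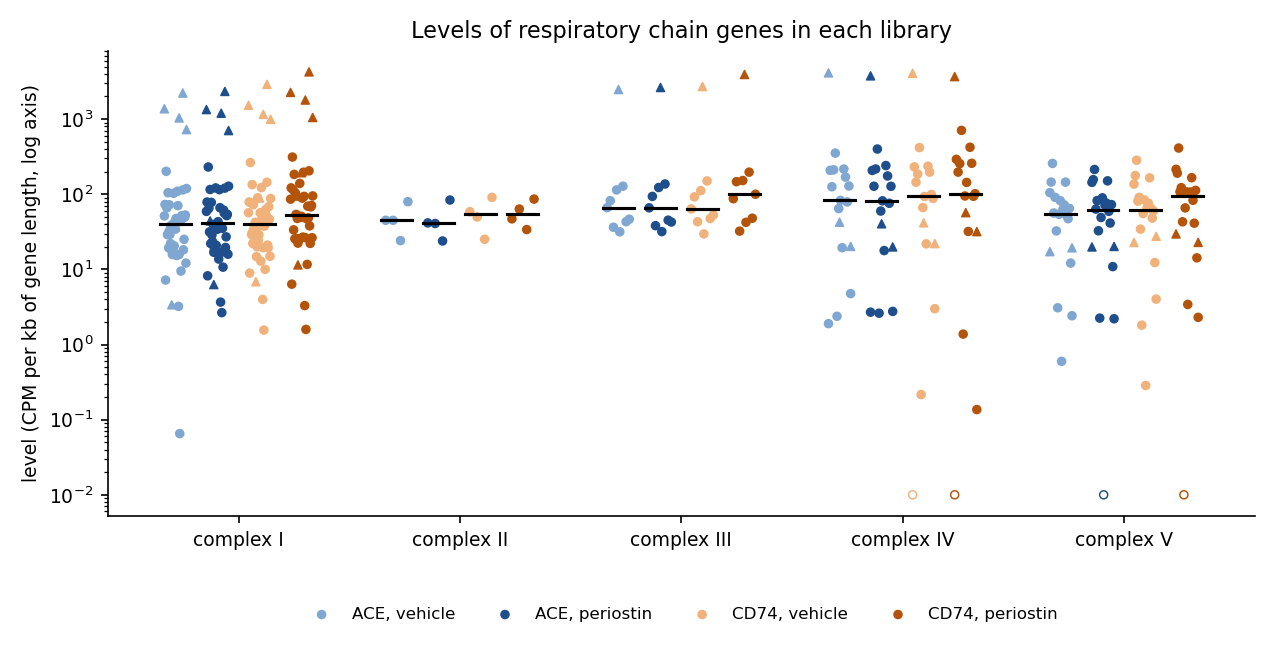
Level of every member in each library by complex, in CPM per kb of gene length on a log axis; circles are nuclear and triangles mitochondrial members, bars are medians, and open circles at the bottom are members with 0 reads in that library. The bar of the CD74+ periostin library is the highest of the 4 for complexes I to V, at 52.3, 55.3, 100.04, 102 and 93.4 CPM per kb.

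All members together held 2.35%, 2.37%, 2.53% and 2.95% of the reads of the 4 libraries. The mitochondrial members held 1.61%, 1.6%, 1.74% and 2.0% and the nuclear members 0.740%, 0.766%, 0.789% and 0.951%. Both genomes therefore had their highest share in the CD74+ periostin library, with exact binomial intervals of 1.99% to 2.01% and 0.946% to 0.957% that cover counting error only. The 2 mitochondrial ribosomal RNAs, which are no members, held 0.547%, 0.691%, 0.720% and 1.37%.

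In ACE+ cells the members stayed close to their vehicle level with periostin. Changes are log2 ratios after adding 1 CPM, and a gene was compared where its subset's table lists it and 1 of the 2 libraries reached 1 CPM. Of 91 members compared, 58 (63.7%) were higher with periostin, against 50.6% of all 14734 genes, and the median change was 0.07 against 0.004. At the 2-fold mark 1 member rose and 0 fell, beside 1.47% and 1.3% of all genes, and at 1.5-fold the counts were the same, beside 6.16% and 5.82%. The counting interval of the ratio lay above 1 for 31 members and below 1 for 15, beside 25.3% and 25.3% of all genes. In these bulk libraries fewer cells of a type and less RNA per cell cannot be told apart.

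The member that rose was Ndufa4l2, a paralogue of Ndufa4 known to be induced in low oxygen. It had 1, 52, 25 and 17 reads, or 0.0627, 2.55, 1.49 and 1.52 CPM. The ACE+ vehicle library stood below the other 3. The ratio of periostin to vehicle in ACE+ cells was 40.7 with a 95% counting interval of 6.98 to 1637, which rests on 1 read.

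Among nuclear members at 5 CPM or more in ACE+ cells, the changes at both ends stayed inside 1.5-fold. Atp5k, subunit e of ATP synthase, stood at 64.7 against 88.7 CPM (vehicle against periostin; ratio 1.37, counting interval 1.27 to 1.48). Ndufc1, a membrane-arm subunit of complex I, stood at 18.1 against 23.8 CPM (ratio 1.31, 1.13 to 1.52), and Ndufb10, of the same arm, at 62.5 against 74.9 CPM (ratio 1.20, 1.11 to 1.30). On the low side were Ndufa7 of the NADH-oxidising module, at 73.1 against 58.9 CPM (ratio 0.806, 0.743 to 0.875), Ndufc2 at 32.7 against 26.6 CPM, and Atp5l at 131 against 109 CPM. The intervals cover counting error only and hold no estimate of the spread between cultures.

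By complex the ACE+ medians were 0.10 for complex I, -0.07 for complex II, 0.07 for complex III, -0.02 for complex IV and 0.07 for complex V. Nuclear and mitochondrial members both had a median of 0.07. Complex II had 0 members with a counting interval above 1 and 2 below, Sdha, the flavoprotein, at 175 against 161 CPM and Sdhb, the iron-sulfur protein, at 101 against 91.3 CPM. In complex III Uqcrb was the highest change, at 71.9 against 82.0 CPM, and Uqcrq the lowest, at 85.2 against 78.2 CPM, while Uqcrh, the hinge protein, stood at 141 against 152 CPM and Uqcr11 at 42.5 against 42.3 CPM. In complex IV the range among members at 5 CPM or more ran from mt-Co1 (change -0.13) and Cox6c (69.3 against 63.5 CPM) to Cox6b1 (178 against 202 CPM). Cox7c, a small membrane subunit, stood at 72.9 against 67.6 CPM.

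In CD74+ cells most members were higher with periostin, and so were other short genes. Of 91 members compared, 78 (85.7%) were higher, against 51.4% of 13865 genes, and the median change was 0.44 against 0.02 for all genes. At the 2-fold mark 5 members rose (mt-Nd3, mt-Nd6, Ndufa5, Ndufb4 and Cox6b2) and 1, Cox6a2, fell, beside 6.69% and 5.25% of all genes. The higher count was near the background, and the lower count below it. At 1.5-fold, 26 members were higher and 1 lower, beside 16.6% and 14.1%. The counting interval lay above 1 for 72 members and below 1 for 8, beside 35.5% and 32.8% of all genes.

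**Figure D3:**
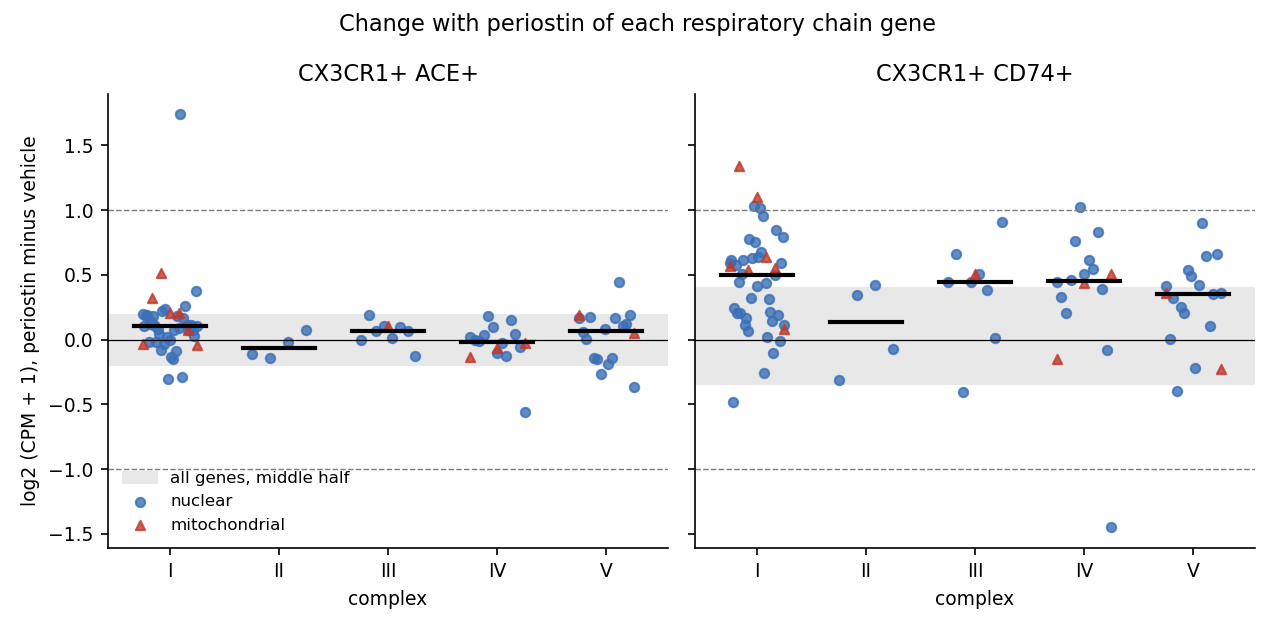
Change with periostin, as log2 (CPM + 1) of the periostin library minus the vehicle library, for each member by complex in ACE+ cells (left) and CD74+ cells (right); bars are medians, the grey band runs from the lower to the upper quartile of all genes compared, and dashed lines mark 2-fold. Complex medians lie between -0.07 and 0.10 in ACE+ cells and between 0.13 and 0.50 in CD74+ cells.

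Complex I had the highest median change in CD74+ cells, 0.50, with 40 of 44 members higher. Ndufa5, an accessory subunit beside the ubiquinone-binding module, stood at 21.2, 21.5, 25.1 and 52.3 CPM and rose 2.09-fold with periostin in CD74+ cells (1.84 to 2.37). Ndufb4, of the membrane arm, stood at 17.9, 16.0, 15.1 and 31.5 CPM and rose 2.09-fold (1.77 to 2.47); 37.0% of its words recur in other genes. mt-Nd6 rose 2.17-fold (1.98 to 2.38) and mt-Nd3 2.66-fold (2.24 to 3.17). Of the words of mt-Nd3, 98.0% recur in Gm28438, so its change is uncertain. For Ndufa5, Ndufb4 and mt-Nd3 the CD74+ periostin library stood apart from the other 3, whereas mt-Nd6 was already higher in CD74+ than in ACE+ cells with vehicle.

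Complex I also held members that were lower with periostin in CD74+ cells. Ndufs1, the large iron-sulfur subunit of the NADH-oxidising module, stood at 58.3, 66.4, 72.2 and 51.4 CPM, a ratio of 0.712 (0.644 to 0.787) in CD74+ cells. Ndufb2 stood at 22.4 against 18.6 CPM, and Ndufb6 at 45.0 against 44.8 CPM. The 7 nuclear core subunits, those conserved from bacteria and carrying the flavin and the iron-sulfur clusters or lining the ubiquinone site, had a median change of 0.19, and the other 30 nuclear members 0.54. The core genes are also longer, with a median length of 2178 bases against 1101, and 200 genes of like length and level had medians of 0.15 and 0.35. No test was made of this split.

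Complex II, the smallest, had the lowest median, 0.13. Sdhc and Sdhb stood at 81.9 against 110.2 and 112 against 142 CPM in CD74+ cells, while Sdha stood at 227 against 183 CPM (ratio 0.804, 0.761 to 0.849) and Sdhd at 117 against 111 CPM. The 4 subunits of this complex thus differed in direction.

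Complex III had a median of 0.45, with 8 of 9 members higher. Uqcrq, a small subunit near the ubiquinone site, stood at 85.2, 78.2, 97.0 and 183 CPM, a ratio of 1.89 (1.77 to 2.02) in CD74+ cells. Uqcrb stood at 80.9 against 129 CPM, with 43.4% of its words in other genes. mt-Cytb had a ratio of 1.42 (1.41 to 1.44). The 2 core proteins went opposite ways, Uqcrc1 at 123 against 175 CPM and Uqcrc2 at 108 against 81.0 CPM (ratio 0.751, 0.693 to 0.814). Uqcrfs1, the Rieske iron-sulfur protein, stood at 64.9 against 65.4 CPM.

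Complex IV had a median of 0.45, while its summed level was 7918, 7388, 7942 and 7997 CPM, most of it mt-Co1. mt-Co1 was lower with periostin in both subsets, with ratios of 0.913 (0.905 to 0.920) for ACE+ and 0.904 (0.895 to 0.912) for CD74+ cells, while mt-Nd1, mt-Nd2, mt-Nd4 and mt-Cytb had ratios between 1.42 and 1.55 in CD74+ cells. mt-Nd5 lay between them, at 1.06 (1.04 to 1.08). Among nuclear members Cox6a1 stood at 152, 169, 166 and 296 CPM (ratio 1.78 in CD74+ cells, 1.70 to 1.88) and Cox6b1 at 178, 202, 211 and 357 CPM (ratio 1.70, 1.62 to 1.77). Cox7b stood at 120.5 against 114 CPM and Cox7a2l, a supercomplex assembly factor, at 101 against 117 CPM. Cox4i1, a large nuclear subunit, stood at 322, 322, 359 and 451 CPM.

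Complex V had a median of 0.35, with 15 of 18 members higher. Atp5d, the delta subunit of the rotating stalk, stood at 125, 140.4, 116 and 217 CPM (ratio 1.88 in CD74+ cells, 1.77 to 1.99). Atp5e, the epsilon subunit, stood at 110.2, 126, 115 and 182 CPM. Atp5b and Atp5a1, which form the catalytic head, stood in the 2 CD74+ libraries at 751 against 808 CPM and 518 against 521 CPM. The 3 genes for the c ring differed in direction: Atp5g1 stood at 60.5 against 69.97, Atp5g3 at 177 against 235 and Atp5g2 at 80.5 against 69.0 CPM. mt-Atp8 stood at 5.62 against 4.66 CPM, with a counting interval that crosses 1 (0.580 to 1.18).

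The shift of CD74+ members was judged against genes of like length and level, because across all 13865 genes the change in CD74+ cells fell with gene length (Spearman -0.32 across genes, which are not independent). The 10% of genes with the shortest length had a median change of 0.45 and the 10% with the longest -0.28. The nuclear members compared had a median length of 1328 bases against 3530 for other genes. For each member the median change of the 200 nearest genes that are no members was subtracted. Those neighbours had a median of 0.32, and members exceeded them by a median of 0.12, with 58 of 91 above their neighbours. The nuclear median was 0.11 and the mitochondrial 0.20 above the neighbours. For mt-Nd1, mt-Nd2, mt-Nd4, mt-Nd5 and mt-Cytb the nearest genes were longer and at a lower level. mt-Nd1 (957 bases, 2775 and 4067 CPM) had neighbours with medians of 1683.5 bases and 662 CPM. mt-Cytb (1144 bases, 3167 and 4504 CPM) had 1796 bases and 698 CPM. Since the change fell with length, the mitochondrial excess is uncertain. With the length of the longest coding transcript in place of the deposited length, an alternative chosen after seeing the data, the nuclear median was -0.0155, so the direction of the nuclear excess turned.

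**Figure D4:**
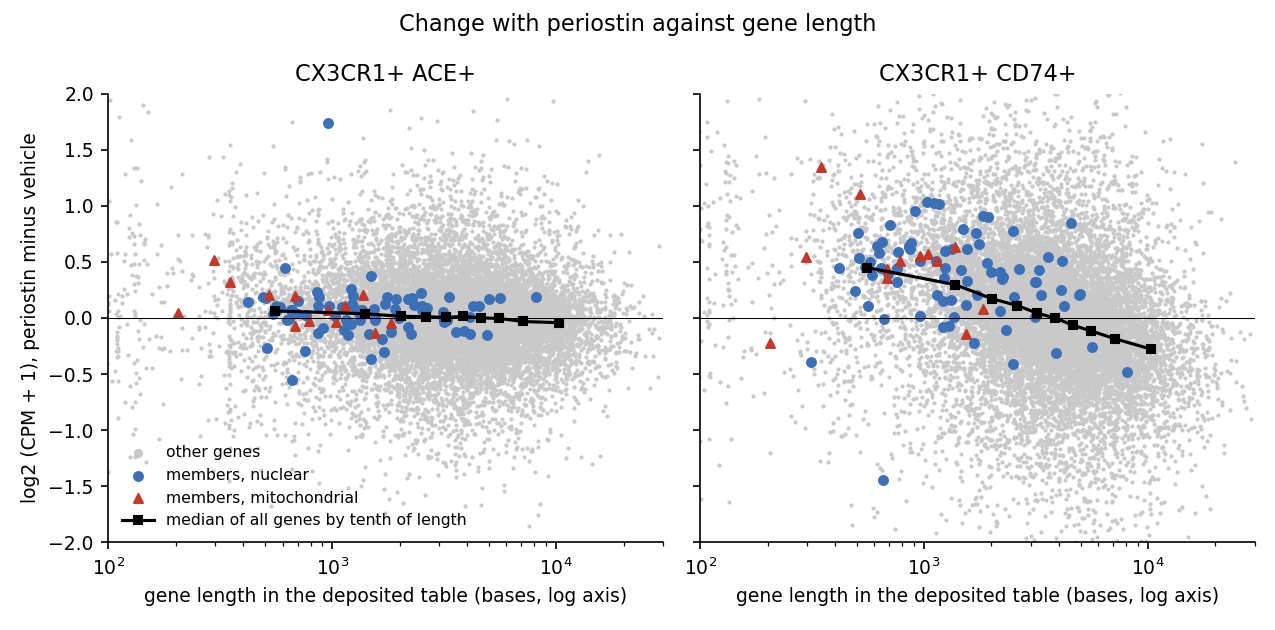
Change with periostin, as log2 (CPM + 1) of periostin minus vehicle, against the deposited gene length on a log axis in ACE+ (left) and CD74+ cells (right); grey points are all genes compared, black squares the medians of 10 equal length classes of genes, and genes beyond 2 on the vertical axis are not drawn. In CD74+ cells the black line falls from 0.45 to -0.28 and the members scatter along its upper left part, whereas in ACE+ cells it runs from 0.06 to -0.04.

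By length class, nuclear members under 1000 bases had a median change of 0.50 in CD74+ cells against 0.44 for other genes of that class. Between 1000 and 2000 bases the medians were 0.45 and 0.25, and at 2000 bases or more 0.23 and -0.06. By deposited length, the gap between members and other genes was therefore smallest among the short genes. The longest class also holds members with much shorter coding transcripts. Examples are Ndufb7 (4522 bases deposited, 623 in the longest coding transcript), Ndufb5 (4995 and 1079) and Cox6c (3567 and 738). The gap in that class is thus uncertain, and the part of the length used was not tested by class. In ACE+ cells members exceeded their neighbours by a median of 0.04.

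The members that stood furthest above their neighbours in CD74+ cells were mt-Nd3 (0.86), Ndufb7 (0.82; 82.4, 88.7, 95.2 and 172 CPM), Ndufb4 (0.76), Atp5d (0.70), Uqcrq (0.69) and Ndufa5 (0.68). The value of mt-Nd3 is uncertain because 98.0% of its words recur in another gene. That of Ndufb7 depends on the length used. Its deposited length is 4522 bases, but its longest coding transcript has 623. Its neighbours were long genes, with a median length of 4446 bases and a median change of 0.02. Other genes under 1000 bases had a median change of 0.44. By complex the median excess was 0.16 for complex I, -0.05 for II, 0.10 for III, 0.04 for IV and 0.13 for V. The complexes overlapped widely, and the 4 members of complex II lay between -0.42 and 0.34.

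**Figure D5:**
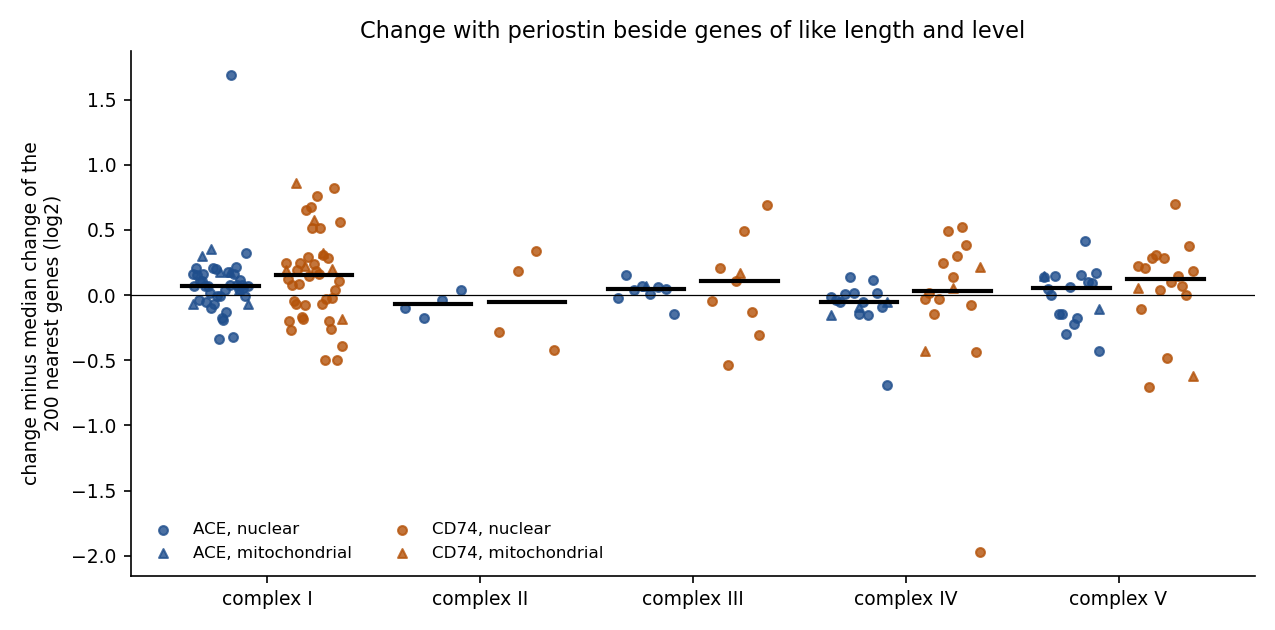
Change of each member with periostin minus the median change of the 200 non-member genes nearest in length and level, by complex, in ACE+ (blue) and CD74+ cells (orange); circles are nuclear and triangles mitochondrial members, and bars are medians. The CD74+ bars lie between -0.05 and 0.16 and the ACE+ bars between -0.07 and 0.07.

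Tissue isoforms and members missing from a table were near the detection floor. Cox6a2, the heart and muscle form of Cox6a, had 50, 37, 33 and 1 reads (3.14, 1.82, 1.97 and 0.0897 CPM) and fell with periostin in CD74+ cells, 22.0-fold with a counting interval of 3.68 to 895. Of 12 skeletal muscle markers, 9 were in the tables and summed to 34.9, 30.9, 17.3 and 36.1 CPM, with 2 and 1 at 0 in the CD74+ libraries; their part in the value of Cox6a2 was not tested. Cox6b2, the testis form of Cox6b, had 42, 59, 4 and 17 reads (2.63, 2.89, 0.239 and 1.52 CPM) and rose 6.38-fold (2.08 to 26.0) in CD74+ cells. Its vehicle level there was the lowest of the 4. Cox7a1, the muscle form of Cox7a, had 11, 20, 0 and 0 reads, at least 3.85-fold lower in CD74+ than in ACE+ cells with vehicle and at least 3.65-fold lower with periostin, both against a floor of 3 reads in the library with none.

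Atp5s, coupling factor B, had 73, 68, 45 and 0 reads, and the authors' CD74+ table left it out. Its level fell from 2.69 CPM to below the floor, at least 10.00-fold. The pseudogene Atp5k-ps2 had 2, 0, 1 and 8 reads. Atp5l2-ps had 12, 14, 21 and 8 reads, with 73.4% of its words in other genes. The isoform genes Cox4i2, Cox8b and Cox8c were not analysed here.

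Between the subsets, CD74+ cells had the higher level for most members, by a small margin with vehicle and a larger one with periostin. With vehicle 72 of 91 members were higher in CD74+ cells, against 49.9% of all genes, with a median of 0.15. Genes of like length and level had a median of 0.04, and the median excess of the members was 0.12. At 2-fold 2 were higher (mt-Nd6 and Ndufa4l2) and 1 lower (Cox6b2), beside 3.64% and 7.73% of all genes. At 1.5-fold the counts were 3 and 1, beside 11.9% and 17.0%, and the counting interval lay above 1 for 53 and below 1 for 14, beside 34.1% and 34.6%. Cox6b2 was 11.0-fold lower in CD74+ cells (4.00 to 42.3). With periostin 78 of 90 members were higher, against 50.2%, with a median of 0.49. Genes of like length and level had a median of 0.30 here, and the median excess was 0.21 for all and 0.15 for nuclear members. At 2-fold 5 members were higher (mt-Nd3, mt-Nd6, Ndufa5, Ndufs5 and Uqcrq) and 1, Cox6a2, lower, beside 6.94% and 10.4%. At 1.5-fold the counts were 30 and 2, beside 18.5% and 20.8%, and the counting interval lay above 1 for 72 and below 1 for 9, beside 36.9% and 36.8%. These 2 comparisons share their libraries with the periostin comparisons. Among the 5 higher members mt-Nd6 had the widest gap, 4.57-fold (4.09 to 5.11), and Cox6a2, which rests on 1 read in CD74+ cells, was 20.2-fold lower (3.41 to 821).

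A fit of all 4 libraries with subset and treatment as terms, edgeR's quasi-likelihood test, covered 13129 genes. It leaves 1 residual degree of freedom and counts any difference between the 2 responses as error. Its p-values draw mostly on a spread estimated across all genes, so they do not measure the spread of a single gene. For the difference between subsets 10 members were higher in CD74+ cells and 0 lower at an adjusted p under 0.05, beside 6.23% and 9.15% of all genes, and 29 of 90 had an unadjusted p under 0.05, beside 26.4%. mt-Nd6 led, with a log2 difference of 1.75 (SE 0.25) and an adjusted p of 2.09e-10. The others were Uqcrq, Atp5g3, Ndufb7, Cox6b1, Atp5l, mt-Nd1, Ndufa5, Ndufs5 and Ndufa2, with log2 differences of 0.54 to 0.77. Each had a larger CD74+ to ACE+ ratio with periostin than with vehicle, such as 2.43 against 1.18 for Ndufa5 and 1.82 against 1.31 for mt-Nd1. The fit has no term for gene length. The shortest of 10 length classes of all genes had median differences of 0.03 with vehicle and 0.37 with periostin. DESeq2 called 4 of 90 members higher and 0 lower, beside 581 higher and 864 lower of the 12110 genes it adjusted. The 4 members were mt-Nd6, mt-Nd1, Atp5g3 and mt-Nd5, and mt-Nd5 was not called by edgeR. Uqcrq, Ndufb7, Cox6b1, Atp5l, Ndufa5, Ndufs5 and Ndufa2 were called by edgeR only. For the effect of periostin common to both subsets edgeR called 0 members in either direction, beside 0.0609% higher and 0.0457% lower of all genes. At an unadjusted p under 0.05 it had 18 of 90, beside 6.67%. DESeq2 called 0 members, beside 2 higher and 0 lower of all genes, with 9 members at the unadjusted mark, beside 435 of 13129 genes. Atp5d was the nearest, with a log2 change of 0.55 (SE 0.19) and an edgeR adjusted p of 0.36.

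The response to periostin was larger in CD74+ than in ACE+ cells for 73 of 90 members, against 50.1% of all genes, with a median difference of 0.40 against 0.001. Genes of like length and level had median changes of 0.32 in CD74+ and 0.03 in ACE+ cells, which the members exceeded by medians of 0.12 and 0.04, so most of this difference was shared by similar genes. At 2-fold 6 members had the larger response in CD74+ cells (mt-Nd3, Ndufa5, Ndufa7, Ndufb4, Ndufb11 and Uqcrq) and 1, Ndufa4l2, in ACE+ cells, beside 6.13% and 6.61% of all genes, and at 4-fold there were 0 and 0, beside 0.807% and 0.663%. With 1 library per group this difference could not be tested. Across the 77 nuclear members compared in both subsets the 2 changes showed Pearson 0.08 and Spearman 0.05, a description across genes that share their libraries.

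Promoters were read for the nuclear members because factors named NRF1, GABPA and YY1 are known to bind near the starts of many respiratory chain genes. All 81 nuclear members matched a RefSeq gene and 66 had a promoter in the RefSeq table (GRCm38.p6), 250 bases before to 50 after the start. Both strands were searched. The core of the NRF1 motif, CGCATGCG, was in 9 of 66 (13.6%), against 2.07% of 27025 genes, and the looser CGCNTGCG, which holds the first, in 25 (37.9%) against 9.22%. The GABPA motif CCGGAAGT was in 5 (7.58%) against 4.31%, and the YY1 motif AAGATGGC in 10 (15.2%) against 3.19%. These are letter matches and describe no binding.

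Of the 9 promoters with CGCATGCG, 3 are shown because their genes had the 2 highest changes and the lowest in CD74+ cells among those 9. They are Cox6a1 (change 0.83, chr5:115348909-115349208, minus strand), Atp5k (0.65, chr5:108434350-108434649, minus strand) and Atp5g2 (-0.22, chr15:102670998-102671297, minus strand). Capitals mark the motif.
Cox6a1: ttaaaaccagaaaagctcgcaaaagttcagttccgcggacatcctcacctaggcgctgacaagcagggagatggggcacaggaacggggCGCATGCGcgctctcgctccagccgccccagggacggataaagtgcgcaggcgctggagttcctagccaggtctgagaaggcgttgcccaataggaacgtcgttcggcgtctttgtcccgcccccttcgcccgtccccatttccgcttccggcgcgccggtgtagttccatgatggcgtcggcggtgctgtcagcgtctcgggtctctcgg
Atp5k: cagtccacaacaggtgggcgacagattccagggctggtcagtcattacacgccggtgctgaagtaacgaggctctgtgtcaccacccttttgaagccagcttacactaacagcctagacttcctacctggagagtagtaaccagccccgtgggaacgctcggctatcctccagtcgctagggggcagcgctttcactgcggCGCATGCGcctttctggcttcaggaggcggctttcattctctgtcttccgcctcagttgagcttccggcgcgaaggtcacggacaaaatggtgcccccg
Atp5g2: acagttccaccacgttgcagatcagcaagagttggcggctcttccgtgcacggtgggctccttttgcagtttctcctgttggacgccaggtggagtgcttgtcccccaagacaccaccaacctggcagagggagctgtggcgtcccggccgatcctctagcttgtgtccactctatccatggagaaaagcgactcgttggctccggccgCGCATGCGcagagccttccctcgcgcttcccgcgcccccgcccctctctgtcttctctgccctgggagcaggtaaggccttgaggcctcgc
The motif starts 161, 49 and 41 bases before the gene start in these promoters. In CD74+ cells the 25 members with CGCNTGCG had a median change of 0.49 and the 39 compared without it 0.35. With and without the YY1 motif the medians were 0.32 and 0.44, with and without the GABPA motif 0.44 and 0.41, and with and without CGCATGCG 0.51 and 0.41.

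Genes that build or serve the chain were read in 5 lists, whose median lengths ran from 2073 to 5500 bases. They are thus longer than the nuclear members, and no length-matched value was computed for them. In CD74+ cells 51.4% of all genes were higher with periostin, and 6.69% rose and 5.25% fell 2-fold. Of 46 assembly factors 25 were higher with periostin, with a median of 0.06, and 2 rose and 1 fell 2-fold. The largest changes were Pet100, a complex IV assembly factor, which rose from 30.5 to 97.2 CPM, and Sdhaf3, a complex II assembly factor, which fell from 3.77 to 0.807 CPM. Of 26 electron carriers and feeder enzymes 13 were higher (median 0.005), from Coq2, which fell from 11.7 to 3.05 CPM, to Pdss1, which rose from 3.71 to 8.61 CPM, both of ubiquinone synthesis. Of 30 genes of mitochondrial DNA expression 14 were higher (median -0.16), from Twnk, the mitochondrial helicase, which fell from 23.1 to 10.6 CPM, to Hsd17b10, part of the mitochondrial RNase P, at 51.4 against 84.0 CPM. Of 17 genes of the tricarboxylic acid cycle 9 were higher (median 0.05), with Idh3g, a subunit of isocitrate dehydrogenase, at 87.7 against 115 CPM and Pcx, pyruvate carboxylase, falling from 8.07 to 2.33 CPM.

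Regulators of mitochondrial biogenesis had 11 of 14 members higher in CD74+ cells, with a median of 0.10 and 0 past 2-fold. Pprc1 and Ppargc1b, both coactivators of the PGC-1 family, stood at 79.8 against 51.1 and 4.30 against 6.19 CPM. In ACE+ cells medians of the 5 lists ran from -0.11 to 0.04, and Ndufaf8, a complex I assembly factor, rose from 5.90 to 13.6 CPM. Ppargc1a, another PGC-1 coactivator, fell from 2.13 to 0.540 CPM in ACE+ cells and had 0 and 20 reads in CD74+ cells, where the authors' table left it out. Ppargc1b fell from 3.58 to 1.23 CPM in ACE+ cells, while Pprc1 stood at 39.96 against 51.1 CPM, opposite in direction to CD74+ cells for both genes.

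In the authors' deposited enrichment table for CD74+ cells the keyword Mitochondrion was the first of 548 terms, with 210 genes, a p-value of 4.88e-19 and a fold enrichment of 1.84, and 30 of the 210 were members. In the authors' deposited table the term for oxidative phosphorylation held 34 genes, 30 of them members, with a fold enrichment of 2.21, and that for complex I held 18, 17 of them members. The 30 members had a log2 change of 0.51 or more in the authors' deposited table, where 39 members reached that value. The authors' deposited table for ACE+ cells, with 637 terms, listed none of these terms.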

How the data were processed

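RNA was isolated with Trizol and made into libraries with a TruSeq RNA kit, per the labels' protocols, and HISAT2 and GRCm38 are named in the submitters' processing notes. No counter, strand setting or annotation release was given in the sources used here. The authors deposited, per subset, a signal per gene that equals reads divided by 1 size factor per library, with gene length, a log2 ratio of periostin to vehicle, and a table of enriched terms with p-values and fold enrichment. Whole reads were recovered for 100% of values within 0.001 read. For 3134 genes that 1 table leaves out, the other table's mean over the 4 libraries gave the missing sum, and reads were worked out within 0.0001 read.

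Changes are log2 differences after adding 1 CPM, and a gene was called at 2-fold. Ratios of reads carry exact 95% binomial intervals, which cover counting error only and treat reads as independent molecules. Each member was set beside the 200 non-member genes nearest in deposited length and mean level. A 2-term model (subset, treatment) was fitted on the recovered reads of all genes with edgeR 4.0.16 (TMM, quasi-likelihood, Benjamini-Hochberg adjustment) and DESeq2 1.42.0 in R 4.3.3, after a test on simulated data. Other steps used Python 3.11.15 with numpy 2.4.6, pandas 2.3.3, scipy 1.17.1 and matplotlib 3.10.9. The planned design allowed for counts or normalised values, and scaled counts were found.

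Sequence sharing was counted as 50-base words of GENCODE M21 transcripts that recur in transcripts of another gene. Promoter motifs were searched as 8-letter cores after longer forms had been tried. The members and lists were chosen with earlier results of these data known. Genes named were all mitochondrial members, all members past 2-fold or missing from 1 table, the 2 highest and 2 lowest changes of nuclear members per complex at 5 CPM or more, the highest level per kb in each complex, tissue isoforms, and the extremes of each pathway list. Other names were chosen after their values were seen, among them Ndufb7, Ndufb11, Ndufb6, Cox4i1, Atp5b and Uqcrc1. Of the members, 1 is not reported here by name. With 1 library per group no result has a replicate. The fit has 1 residual degree of freedom, and its p-values rest mostly on a spread estimated across all genes.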

Additional observations from a re-analysis of the deposited data

Results flagged for a closer look

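For 12 members reported here the change with periostin ran in opposite directions in the 2 subsets, with both counting intervals away from a ratio of 1. The share of all genes that did so was not computed, so this count is not read as a result about the members. Counting intervals lay above and below 1 for 25.3% and 25.3% of all genes in ACE+ cells. In CD74+ cells they did so for 35.5% and 32.8%. With 1 library per group the differences of the 12 members were not tested. The values given are the CD74+ change minus the ACE+ change on the log2 scale.

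In complex I the difference was 1.06 for Ndufa7, 0.61 for Ndufc2, 0.60 for mt-Nd2 and 0.12 for mt-Nd5, each lower with periostin in ACE+ and higher in CD74+ cells. Ndufs1 (-0.67), a core subunit of the arm that faces the matrix, went the other way. In complex II it was 0.49 for Sdhb, and in complex III 1.03 for Uqcrq. In complex IV it was 0.67 for Cox6c. In complex V it was 0.80 for Atp5l, 0.57 for Atp5h, 0.39 for Atp5f1 and 0.36 for Atp5g1. Atp5f1, Atp5h and Atp5l are subunits b, d and g of the stalk and membrane part of ATP synthase, and Atp5g1 is 1 of 3 genes for its c ring.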

How the results depend on the processing

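Across 330 alternatives for 59 results, 295 kept their direction and size, 34 moved and 1 reversed; alternatives on the choice of members and on transcript length were chosen after seeing the data. No paired analysis was possible because each group is 1 library and the labels give no replicate numbers, and for the same reason no fit without a library was made.

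Calls at 2-fold that rest on few reads were lost with a larger pseudocount or filter. With 5 CPM added, 0 members were higher in ACE+ cells with periostin, 2 higher and 0 lower in CD74+ cells, 1 higher and 0 lower in CD74+ against ACE+ cells with vehicle, and 3 higher and 0 lower with periostin. With at least 5 CPM required the counts were 0 higher for ACE+, 4 higher and 0 lower for CD74+, 1 higher and 0 lower between subsets with vehicle, and 5 higher and 0 lower with periostin. Without pseudogenes and genes that are no core subunit, Ndufa4l2 among them, 0 were higher in ACE+ cells and 1 between subsets with vehicle. With totals that leave out mitochondrial genes, 2 were higher in CD74+ cells with periostin and 3 between subsets with periostin, where the median became 0.38. Members under 10% shared sequence gave 3 and 3 for those comparisons, and 1.5-fold gave 26, and 30 higher and 2 lower. With 0.1 CPM added, 1 response was 4-fold higher and 2 were 4-fold lower in CD74+ cells. The subset difference called 4 members higher without a filter, beside 572 of 17532 genes, and 4 with DESeq2, beside 581 of 12110.

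The excess over genes of like length and level depended on the length used. Matched on level alone it was 0.41 for all, 0.40 for nuclear and 0.42 for mitochondrial members in CD74+ cells, and 0.42, 0.42 and 0.48 for CD74+ against ACE+ cells with periostin, where the main values were 0.21, 0.15 and 0.29. Matched on length alone the latter was 0.31 for nuclear and 0.42 for mitochondrial members. With the longest coding transcript the nuclear excess in CD74+ cells was -0.0155. The cause of these shifts was not tested.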

Other observations

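Markers of other cells of bone and marrow were read beside the members. The 9 chondrocyte markers summed to 227, 768, 1237 and 923 CPM, and 5 osteoblast markers to 463, 375, 141 and 146 CPM. The 6 lymphocyte markers summed to 339, 277, 15.9 and 8.25 CPM. Of 3 brown fat markers 1 was in the tables, at 0.376 and 0.392 CPM in ACE+ cells and at 0 in both CD74+ libraries. Lymphocyte and osteoblast markers were therefore lower in both CD74+ libraries than in both ACE+ libraries, while chondrocyte markers were lowest in the ACE+ vehicle library. The part of these cells in the members' levels was not tested.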
